A study of Sus scrofa with 4 samples.

Results

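Of the 22658 features listed in the RNA-seq tables of longissimus dorsi (LD) muscle of Laiwu pigs, a Chinese breed known for its marbled meat, 1440 were newly assembled genes. Their identifiers start with pig_newGene_ and carry no Ensembl number, and that prefix alone was the rule by which they were chosen. The other 21218 features were Ensembl genes. The study sampled 12 castrated males, labelled wild type and reared alike, with 3 pigs at each of 60 d, 120 d, 240 d and 400 d of age. No treatment was given. The labels name 1 sample per age, whose file holds 3 libraries, and these were taken as 3 pigs and numbered as the columns stand.

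A gene that no annotation lists can still be seen in RNA-seq, because spliced reads join exons into a transcript model on the genome. Such models may be genes missing from the annotation, unrecognised ends of known genes, pieces of 1 long gene, antisense transcripts or RNA that codes for no protein. The pig annotation of the Sscrofa10.2 build, which also holds many short unplaced scaffolds, was known to be incomplete. No sequence of these models was at hand, so they are described by their place, length, levels and neighbours.

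Total counts were 9713813 to 13325327 per library, so that 3 counts, used as the floor of detection, stood for 0.225 to 0.309 CPM, the count scaled to the total of its library. ACTA1 (ENSSSCG00000010190), the skeletal muscle actin, was listed at 0 counts in 7 libraries and at up to 955237 counts in the other 5, which moves every share of a library's total. Of the markers of skeletal muscle, 5 of 13 were matched by symbol, and their summed FPKM without ACTA1 was 2517 to 8875. Matched markers of other cell types are given by labelled age. The summed FPKM of COL3A1 and COL1A2, collagens of fibroblasts, was 477 to 1555 in the 60 d group, 682 to 1026 in the 120 d group, 306 to 491 in the 240 d group and 101 to 310 in the 400 d group. Leukocyte markers (3 of 3 matched) summed to 8.24 to 15.4, 10.4 to 35.8, 4.83 to 9.64 and 1.70 to 6.69, blood markers (2 of 3) to 218 to 1168, 31.2 to 217, 134 to 274 and 57.3 to 100.4, fat cell markers (3 of 6) to 10.5 to 44.2, 9.82 to 21.7, 20.5 to 34.5 and 4.01 to 28.6, and PECAM1 of endothelium was 38.9 to 88.2, 42.3 to 63.9, 38.7 to 53.4 and 22.6 to 37.3, in the same order of ages. The part of these cells in any result given here was not tested, and in bulk muscle fewer cells of a type and less RNA per cell cannot be told apart.

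The ages themselves are given in conflicting ways. For the 120 newly assembled genes that the supplementary table of differential expression lists, its columns for 60, 120, 240 and 400 d matched the libraries that the labels place at 400, 240, 60 and 120 d, with a median absolute log2 difference of 0.0198 to 0.0200 against 0.527 to 1.79 for all other pairings. The depth of the libraries varied less under the labels. Total counts without ACTA1 were divided by the uniquely mapped read pairs that the study lists, after ranking both within each age, since nothing ties a listed total to a library. The quotients were 0.864 to 0.939 with the labelled ages, a 1.09-fold range, and 0.720 to 1.02, a 1.41-fold range, with the ages of that table. The main text of the paper lists ITGB2 and PVALB as higher at 240 d than at 120 d. Under the labels, ITGB2 had 3.60 to 13.7 FPKM at 120 d and 1.64 to 2.25 at 240 d. PVALB had 10.6 to 103.8 FPKM at 120 d and 9.26 to 20.9 at 240 d. The supplementary table places the libraries labelled 240 d at 120 d and those labelled 60 d at 240 d. In the libraries labelled 60 d, ITGB2 had 3.17 to 7.13 FPKM and PVALB had 7.03 to 175. The paper also reports that qRT-PCR correlated strongly with its RNA-seq values for chosen genes. It found EGR1 and FASN higher at 240 d by qRT-PCR. Which ages are right was not settled, and the labelled ages are used below. A test of any difference between the 4 groups of libraries does not depend on this, whereas each direction with age and each count for a pair of ages does.

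At least 3 counts in some library were seen for 1435 of 1440, against 69.6% of Ensembl genes, and at least 3 counts in every library for 974 (67.6%, 95% Wilson interval 65.2 to 70.0%), against 53.6%. Only 4 were at 0 counts in all 12 libraries. Among genes detected in some library, the order turned round, with 67.9% of newly assembled and 77.0% of Ensembl genes at 3 counts or more in every library. Since a newly assembled gene is listed only because reads formed its model, its detection in some library was largely set in advance. Ensembl genes are listed whether or not muscle expresses them, so the comparisons of detection are descriptions only. The Wilson interval treats genes as independent and does not measure the spread between pigs.

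They were short and spliced. Median transcript length was 991.5 bases against 1830 for Ensembl genes, while the median stretch of genome they covered was 5851 bases against 14448. None of 1440 had a length equal to its genomic span, whereas 2059 Ensembl genes (9.70%) did. Every newly assembled gene was therefore a model with at least 1 gap between exons. Whether models of a single exon were dropped when these were built is not stated, so this comparison is a description only. Unplaced scaffolds held 268 of them (18.6%) and 10.1% of Ensembl genes. Those 268 had a median length of 491 bases and a median mean FPKM of 9.07, against 1173.5 bases and 2.50 for the 1172 on chromosomes, and of the 58 newly assembled genes with a mean FPKM of at least 100, 32 lay on scaffolds. Among chromosomes, 10 and 11 had the highest shares, where 10.21% and 10.03% of the listed features were newly assembled.

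Levels were of the same order as those of annotated genes. Median mean FPKM, over genes detected in some library, was 3.08 for newly assembled and 3.04 for Ensembl genes. FPKM, the deposited unit of fragments per kilobase and library size, did not follow counts evenly at short lengths. The ratio of FPKM to CPM per kilobase was 4.90 in median for newly assembled genes of up to 300 bases, 1.84 for those of 301 to 500 bases, 1.003 for those of 1001 to 2000 bases and 0.883 for the longest class. Ensembl genes of the same lengths had 4.25, 1.81, 1.022 and 0.955. On the scale of CPM per kilobase, the order of the medians was reversed, at 2.36 for newly assembled and 2.73 for Ensembl genes.

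**Figure D1:**
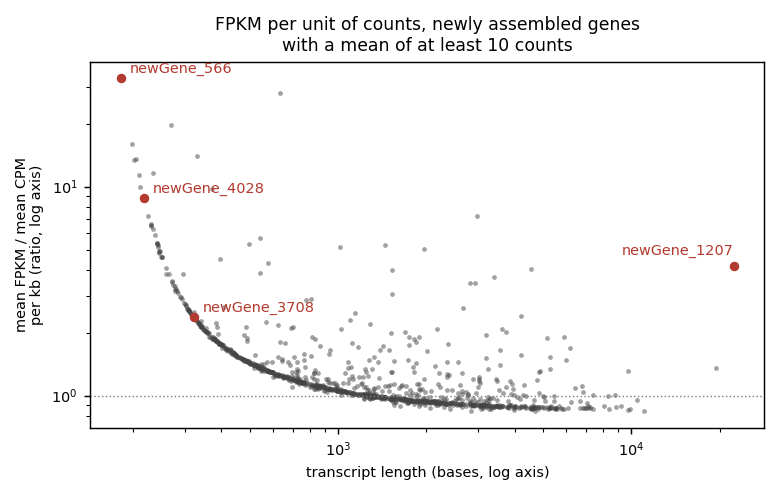
Ratio of mean FPKM to mean CPM per kilobase (log axis) against transcript length in bases (log axis) for newly assembled genes with a mean of at least 10 counts, 1 point per gene, with the dotted line at a ratio of 1. The ratio climbs as transcripts get shorter than about 1000 bases, pig_newGene_566 of 182 bases stands at the top left, and pig_newGene_1207, the longest, lies above the other long transcripts.

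The highest levels came from short transcripts on scaffolds. pig_newGene_3708 (322 bases, scaffold GL894812.1 from 159 to 650, minus strand) had 61461, 50052 and 54828 FPKM in the 60 d libraries, 52866, 44517 and 62594 at 120 d, 34667, 28826 and 23142 at 240 d, and 39845, 41264 and 38955 at 400 d. All 6 libraries of 60 d and 120 d were above all 6 of 240 d and 400 d. pig_newGene_3710 (398 bases, scaffold GL894823.1 from 22 to 666, minus strand) ran alongside it, at 37504 to 41000.5, 30619.5 to 43332, 19074 to 26787 and 29512 to 31515 FPKM at the 4 ages. Neither passed the test over ages described below, with adjusted p = 0.0313 and 0.0625 (edgeR). DESeq2, the alternative test, called both, where it called 20.2% of all features. The pair took 20.2 to 40.7% of all counts of newly assembled genes in a library, and newly assembled genes as a whole took 4.01 to 5.30% of the counts other than those of ACTA1. No Ensembl gene lay on either scaffold, and what they encode was not determined.

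The next in level was pig_newGene_3754 (292 bases, scaffold GL895129.1 from 254 to 2352, plus strand), at 6926 to 24416 FPKM with a median of 11392. Also without an Ensembl gene beside it was pig_newGene_3622 (378 bases, scaffold GL894379.1 from 1 to 460, minus strand), at 333 to 1832 FPKM. pig_newGene_669 (428 bases, chromosome 12 from 58010910 to 58013402, plus strand) had 1245 to 3438 FPKM and overlapped ENSSSCG00000018003, which had 1924 to 7607. The 2 features lie on the same strand, so that their reads may have been split between them. pig_newGene_840 (344 bases, chromosome 13 from 26315724 to 26319120, minus strand) was the steadiest of the 8 highest, at 681 to 1122 FPKM.

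For 2 of the 8 genes with the highest mean FPKM, rank differed strongly between both scales. pig_newGene_566 (182 bases, chromosome 11 from 75712490 to 75714750, minus strand) ranked 8 by FPKM, at 361 to 1929, with 24 to 83 counts per library, and ranked 127 by CPM per kilobase. pig_newGene_4028 (218 bases, scaffold GL896302.1 from 109598 to 110182, minus strand) ranked 5 by FPKM and 21 by CPM per kilobase. It lay 105 bases from ENSSSCG00000029900 and followed it over the 12 libraries with a Pearson r of 0.90 on log2(CPM + 1), where CPM is scaled by TMM. On the per-kilobase scale, pig_newGene_1032 and pig_newGene_1178, both on chromosomes, took the places of these 2 among the first 8.

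Where the genome around a newly assembled gene is annotated, the genes on either side place it. Named Ensembl genes within 300 kb on both sides were found for 734 members, and the same interval was found in the RefSeq annotation of Sscrofa11.1 for 695, which is used only for gene names and order. In 414 of these intervals RefSeq lists a coding gene whose symbol was not matched to any feature of the tables, and in 223 it lists no coding gene. Symbols were matched for 11512 of 21218 Ensembl features, so a symbol that was not matched may still be among the features. The intervals numbered 613, of which 521 held 1 newly assembled gene and 14 held 3 or more.

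The most crowded interval held 10, on chromosome 15 between FKBP7, a folding enzyme of the endoplasmic reticulum, and CCDC141. There RefSeq lists PLEKHA3 and TTN, which encodes titin, the giant protein that spans the sarcomere from its border to its middle and acts as its molecular spring. The 2 longest of all newly assembled genes lay here, both on the minus strand: pig_newGene_1207 (22312 bases, from 93757971 to 93977436) and pig_newGene_1209 (19447 bases, from 93896298 to 93966243). pig_newGene_1207 overlapped 6 of the others, among them pig_newGene_1177 and pig_newGene_1178 on the plus strand. Since the library kit was not stated to keep strand, reads of overlapping features on opposite strands cannot be told apart.

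Levels in this interval were uneven between genes and, for some, between libraries of the same age. In CPM per kilobase, pig_newGene_1207 had 123, 75.1 and 219 in the 60 d libraries, 199, 92.7 and 124.9 at 120 d, 209, 265 and 178 at 240 d, and 315, 349.5 and 177 at 400 d. pig_newGene_1178 (5451 bases, from 93762344 to 93776210) had 90.0, 84.8 and 435, then 520, 211 and 321, then 475, 616 and 321, and then 857, 961 and 302. The ranges of all 4 ages overlapped for both genes, and the adjusted p over ages was 0.196 for pig_newGene_1207 and 0.218 for pig_newGene_1178 (edgeR). pig_newGene_1208 (6762 bases, from 93841454 to 93896186, minus strand) differed from both. It had 10.6 to 31.9 CPM per kilobase in the 6 libraries of 60 d and 120 d and 37.5 to 93.5 in the 6 of 240 d and 400 d, without overlap. Its log2 change from 60 d to 400 d was 1.55 ± 0.44 (SE), and its adjusted p over ages was 0.0418 in edgeR, which misses 0.01, while DESeq2 called it.

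The deposited FPKM of pig_newGene_1207 was not in proportion to its counts. The first 60 d library had 1493 FPKM from 26778 counts, and the third had 774 FPKM from 52456 counts. Its ratio of FPKM to CPM per kilobase ran from 2.58 to 12.1 over the 12 libraries, a 4.71-fold spread. Of 303 newly assembled genes with at least 50 counts in every library, this ratio varied more than 1.5-fold for 27 (8.91%), and the median spread was 1.25-fold. Among 6817 Ensembl genes of the same depth, it was 810 (11.9%) and a median of 1.26-fold.

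**Figure D2:**
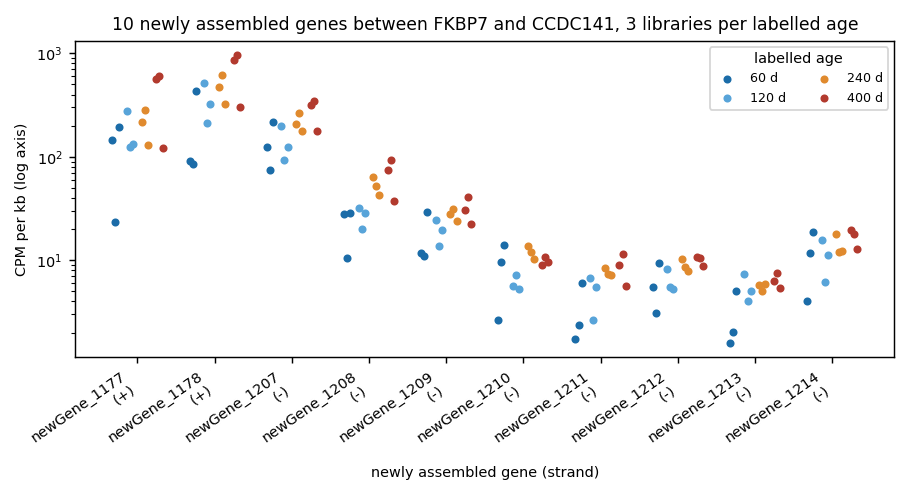
CPM per kilobase (log axis) of the 10 newly assembled genes between FKBP7 and CCDC141 on chromosome 15, 1 point per library, coloured by labelled age, with the strand in brackets. pig_newGene_1177, pig_newGene_1178 and pig_newGene_1207 lie highest, and the 60 d libraries of pig_newGene_1177 run from 23.6 to 195.

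A pair of further abundant genes lay between named genes. pig_newGene_399 (3010 bases, chromosome 10 from 28056148 to 28076739, plus strand) lay between TMEM9 and TNNT2, an interval in which RefSeq lists IGFN1, a muscle protein with immunoglobulin and fibronectin domains. It had 112, 201 and 272 FPKM at 60 d, 409.7, 180.4 and 199.6 at 120 d, 503, 678 and 351 at 240 d, and 525, 675 and 618 at 400 d. Its adjusted p over ages was 0.0278 (edgeR), which misses the threshold of 0.01, while DESeq2 called it. pig_newGene_1032 (1731 bases, chromosome 14 from 33649650 to 33674254, plus strand) lay 348 bases from ENSSSCG00000027344 on the same strand and followed it with r = 0.96. These genes, the interval on chromosome 15 and pig_newGene_398 below were picked after their values were seen.

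Newly assembled genes next to each other on the same strand had the highest correlations among pairs without overlap. For the 51 pairs of newly assembled genes that followed each other within 5 kb on the same strand without overlap, the median r over 12 libraries was 0.791, and 24 pairs (47.1%) reached 0.8. For 16 such pairs on opposite strands the median was -0.0584, with 1 pair at 0.8 or above, and for 619 pairs over 100 kb apart it was 0.0733, with 12 pairs (1.94%). All pairs share the 12 libraries and their depth.

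Values for annotated neighbours were lower. An Ensembl gene was overlapped by 194 newly assembled genes, 113 of them on the same strand, and 365 more lay within 5 kb of one, 173 of them on its strand. Together these made 559 of 1440 (38.8%), against 43.2% of Ensembl genes with another Ensembl gene that near. No Ensembl gene lay on the sequence of 137. Median r with the nearest Ensembl gene was 0.224 over 846 newly assembled genes and 0.181 over 8524 Ensembl genes. Within 5 kb on the same strand it was 0.352 (n = 65) where the newly assembled gene lay 3′ of the Ensembl gene and 0.481 (n = 51) where it lay 5′, against 0.265 (n = 507) and 0.228 (n = 584) for Ensembl genes. An overlap on the opposite strand had 0.0912 (n = 71) against 0.244 (n = 1633). An r of at least 0.8 was reached by 98 newly assembled genes (11.6%) and 564 Ensembl genes (6.62%). Where the nearest Ensembl gene lay over 100 kb away, 10 newly assembled genes reached it (16.4%, n = 61). For single genes, r is printed mainly where it was high. It was 0.180 for pig_newGene_1422, 0.408 for pig_newGene_669, -0.384 for pig_newGene_398 and -0.446 for pig_newGene_1639.

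**Figure D3:**
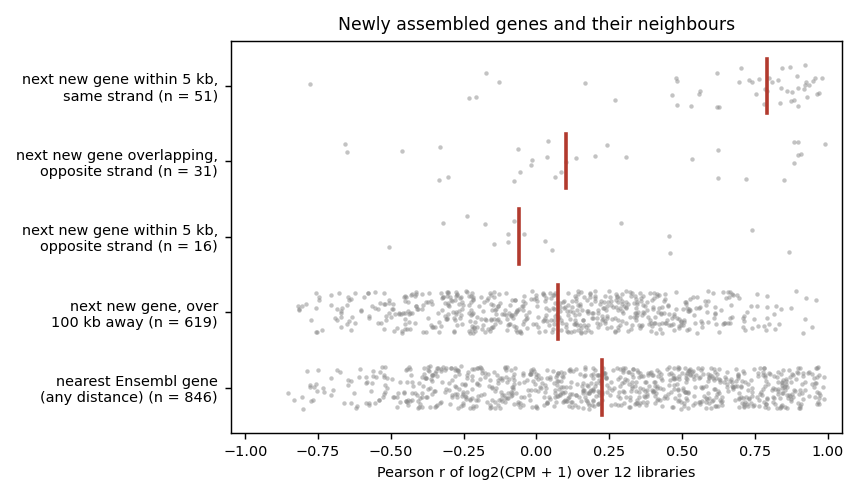
Pearson r of log2(CPM + 1) over 12 libraries between a newly assembled gene and its neighbour, 1 point per pair, with the median as a red bar, for 5 kinds of neighbour; n is the number of pairs. The pairs within 5 kb on the same strand crowd above 0.5 with a median of 0.791, and the medians of the other kinds lie between -0.0584 and 0.224.

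Change between ages was examined with edgeR's quasi-likelihood test on counts over all 13314 features that averaged 10 counts or more at some age, 1202 of them newly assembled. Over the 4 ages, 26 newly assembled genes (2.16%) changed at an FDR of 0.01, where 3.93% of all features tested did, and at an FDR of 0.05 there were 195 (16.2%) against 19.8%. Both shares lie below the background. Newly assembled genes had fewer counts, with a median mean count of 26.9 against 83.2 for Ensembl genes, over genes detected in some library. With fewer counts a change is harder to call, and the part of depth in these shares was not tested. Of the 26, 5 lay on scaffolds and none was among the on/off genes described below. Their mean FPKM ran from 1.18 to 157 with a median of 7.31. An r with the nearest Ensembl gene was available for 13 of the 26, and 4 of these reached 0.8.

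Between adjacent labelled ages, edgeR called 0 newly assembled genes at an FDR of 0.01 and a 2-fold change. The background was 0% in all 3. DESeq2 called 3, 39 and 1 newly assembled genes, where it called 0.105, 3.88 and 0.15% of all features. Past an FDR of 0.05 there were 32 newly assembled genes between 120 d and 240 d (background 3.58%). At an unadjusted p under 0.05 there were 102 between 60 d and 120 d (8.49% against 10.4% of all features), 266 between 120 d and 240 d (22.1% against 27.5%) and 111 between 240 d and 400 d (9.23% against 8.83%). Calls were made between labelled ages further apart, an order that also depends on which ages are right. The study itself compares adjacent ages. By its supplementary table, its 120 d against 240 d is the labelled 240 d against 60 d. Its own list of differential expression holds 120 newly assembled genes, as given above. That number covers all adjacent pairs together, at an FDR of 0.01 and a 2-fold change in the study's own analysis. Their share over all features of that list was not determined, so 120 is not set against the counts given here. From 60 d to 240 d, 3 newly assembled genes rose and 6 fell (9 in all, 0.749%, background 0.841% in both directions, 0.526% higher and 0.315% lower), and an FDR of 0.05 gave 84 (background 6.14%). Between 60 d and 400 d, 28 rose and 34 fell (62, 5.16%, background 6.26%, with 2.78% higher and 3.48% lower), and the looser FDR gave 173 (background 14.2%). Between 120 d and 400 d, 3 rose and 6 fell (9, 0.749%, background 1.16%, with 0.383% higher and 0.781% lower), and the looser FDR gave 81 (background 8.76%). The median absolute log2 change from 60 d to 400 d was 0.67 for newly assembled genes and 0.53 for all features. These comparisons share libraries.

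A split that was added after the values were seen sets the 6 libraries of 60 d and 120 d against the 6 of 240 d and 400 d. The values of these sets did not overlap for 108 of the 1202 newly assembled genes tested (8.99%), against 13.3% of all features, with 59 higher at 60 d and 120 d (background 6.52%) and 49 lower (background 6.76%). The 26 were selected by a test on these libraries, which favours such a separation, so their count is a description only. Of the 26, 19 had no overlap, with 12 higher at 60 d and 120 d and 7 lower. The ages of the supplementary table would put these same libraries at 240 d and 400 d, which turns the direction of this split around.

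Counts depended on single libraries. Without 1 library, the 26 became 27 (without the first of 60 d), 20 and 14 (without the second and the third of 60 d), 17, 17 and 8 (120 d), 12, 10 and 11 (240 d), and 8, 8 and 7 (400 d). The 62 became 44, 32 and 31 (60 d), 48, 58 and 40 (120 d), 46, 55 and 38 (240 d), and 17, 10 and 20 (400 d). The 9 from 60 d to 240 d became 1, 8 and 2, then 4, 4 and 1, then 1, 0 and 0, and then 2, 6 and 2, in the same order of libraries. The 9 from 120 d to 400 d became 15, 5 and 9, then 0, 1 and 0, then 3, 5 and 0, and then 0, 0 and 0. A separate edgeR fit of 60 d and 400 d alone called none of the 62.

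5 genes were called in each of these 3 nonadjacent comparisons and stayed below an FDR of 0.01 over the 4 ages whichever library was left out. Their calls between pairs of ages were less stable. For pig_newGene_110, the call from 60 d to 240 d was kept in 4 of 12 fits without 1 library, and for pig_newGene_2425 that from 120 d to 400 d in 4 of 12, while for pig_newGene_844 that from 60 d to 400 d was kept in 12 of 12. 2 rose with labelled age. pig_newGene_110 (4074 bases, chromosome 1 from 143129789 to 143135618, minus strand) had 1.94, 1.94 and 1.73 FPKM at 60 d, 2.01, 3.30 and 2.70 at 120 d, 4.97, 6.04 and 4.75 at 240 d, and 7.99, 8.21 and 6.59 at 400 d. Its lowest library of each age was above the highest of the age before, with an adjusted p of 0.00156 over ages (edgeR) and a log2 change from 60 d to 400 d of 2.02 ± 0.21 (SE). It overlaps EPB42, a protein of the red cell membrane, on the opposite strand, and EPB42 itself had at most 0.153 FPKM.

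pig_newGene_844 (5560 bases, chromosome 13 from 32714074 to 32720067, minus strand) had 5.53, 9.57 and 8.28 FPKM at 60 d, 12.7, 10.7 and 9.57 at 120 d, 22.0, 32.9 and 49.9 at 240 d, and 34.5, 49.5 and 30.8 at 400 d. All libraries of 240 d and 400 d were above all younger ones (adjusted p = 0.00263 over ages, edgeR), and the log2 change from 60 d to 400 d was 2.30 ± 0.32 (SE). Its nearest Ensembl gene, LRRC2, a leucine-rich repeat protein, lies 6716 bases away on the opposite strand and followed it with r = 0.99, from 13.7 to 174 FPKM.

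The other 3 fell. pig_newGene_3022 (243 bases, chromosome 9 from 10966790 to 10971281, plus strand) had 322, 354 and 343 FPKM at 60 d, 191, 189 and 158 at 120 d, 87.4, 42.9 and 58.3 at 240 d, and 51.5, 28.0 and 64.2 at 400 d. The log2 change from 60 d to 400 d was -2.79 ± 0.31 (SE), with an adjusted p of 0.0018 over ages (edgeR). It overlaps ENSSSCG00000014859 on the same strand, which ran from 28.9 to 443 FPKM with r = 0.97, in an interval between GDPD5 and MAP6 where RefSeq lists SERPINH1, the chaperone of collagen. The summed FPKM of COL3A1 and COL1A2 also had its lowest library at 400 d, as had leukocyte markers and PECAM1. Fat cell markers had theirs there too, but ranged from 4.01 to 28.6 at 400 d against 9.82 to 21.7 at 120 d. The lowest library was at 120 d for blood markers and at 240 d for skeletal muscle markers without ACTA1. Whether pig_newGene_3022 is part of SERPINH1, or goes with any cell type, was not tested.

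pig_newGene_2273 (1518 bases, chromosome 5 from 66371523 to 66376468, minus strand) was the most abundant of these 5 per kilobase. It had 198, 118 and 121 FPKM at 60 d, 103, 124 and 121 at 120 d, 69.1, 63.2 and 53.1 at 240 d, and 63.3, 42.9 and 49.3 at 400 d, with a log2 change from 60 d to 400 d of -1.52 ± 0.20 (SE). It lies between LAG3, an immune receptor with at most 0.757 FPKM here, and MLF2, an interval in which RefSeq lists PTMS. pig_newGene_2425 (1106 bases, chromosome 6 from 53404352 to 53409545, plus strand), 341 bases from LENG9, had 13.6, 10.4 and 14.6 FPKM at 60 d and 2.91, 1.48 and 2.64 at 400 d, and fell by 2.43 ± 0.31 (SE) on the log2 scale. Both had an adjusted p of 0.00263 over ages (edgeR).

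**Figure D4:**
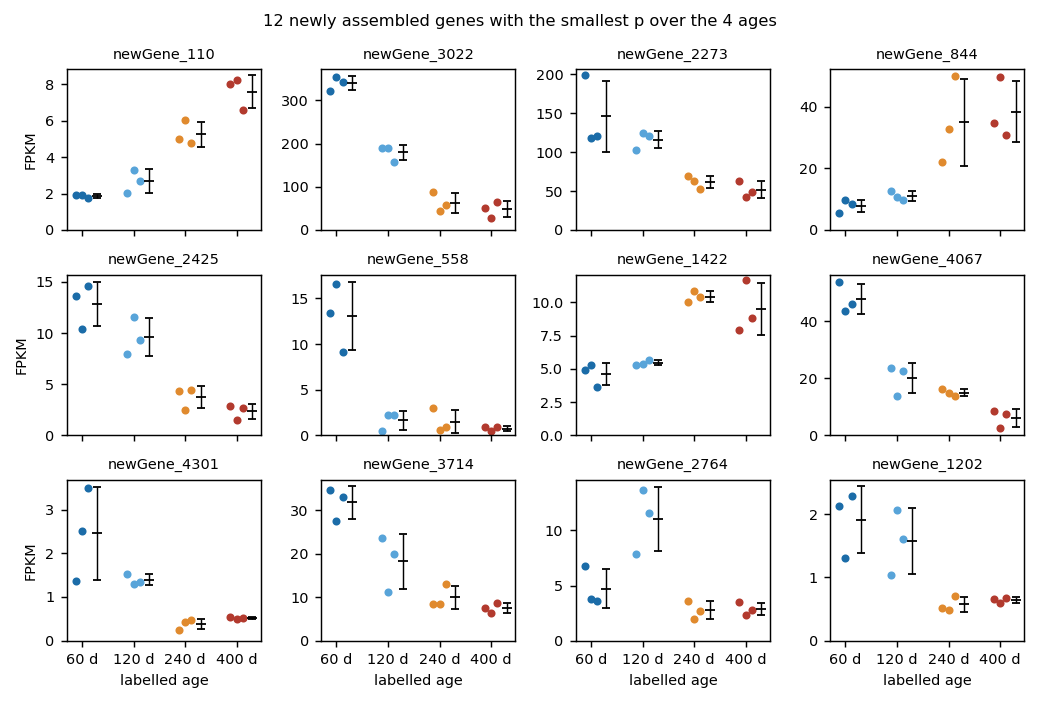
FPKM of the 12 newly assembled genes with the smallest p over the 4 labelled ages, 1 panel per gene with its own linear axis from 0, 1 point per library, and the mean with SD (n = 3) as a black bar beside the points. pig_newGene_110, pig_newGene_844 and pig_newGene_1422 are higher in all libraries of 240 d and 400 d, pig_newGene_558 is high at 60 d alone and pig_newGene_2764 is highest at 120 d.

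Among the rest of the 12 with the smallest p, patterns differed. pig_newGene_558 (1085 bases, chromosome 11 from 24079283 to 24081159, minus strand) had 13.4, 16.6 and 9.17 FPKM at 60 d and 0.447 to 2.94 in the other 9 libraries, a log2 change of -4.18 ± 0.61 (SE) from 60 d to 400 d. It overlaps ENOX1, a cell surface oxidase, on the other strand, which had 0.176 to 0.879 FPKM. pig_newGene_2764 (1275 bases, chromosome 7 from 104578145 to 104587912, minus strand) had its 3 highest values at 120 d, 7.90, 13.7 and 11.6 FPKM, against 1.95 to 6.74 in all others.

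pig_newGene_1422 (5679 bases, chromosome 17 from 43036069 to 43117376, plus strand), between RALY and MAP1LC3A, had 3.63 to 5.65 FPKM at 60 d and 120 d and 7.93 to 11.7 at 240 d and 400 d. The remaining 4 of the 12 had their mean lowest at 240 d or 400 d. These were pig_newGene_4067 and pig_newGene_3714 on scaffolds, pig_newGene_4301 on chromosome X, and pig_newGene_1202, 27244 bases from FAP, a protease of activated fibroblasts. The range of pig_newGene_1202 was 0.490 to 2.30 FPKM, and that of pig_newGene_4067 was 2.52 to 53.7 FPKM.

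The largest changes among genes called were less even across pigs. Between 60 d and 400 d, pig_newGene_1061 (3072 bases, chromosome 14 from 47943782 to 47957759, minus strand) rose most among the genes called, by 3.15 ± 0.63 (SE) on the log2 scale. It overlaps MN1, a transcriptional coregulator, on the same strand with r = 0.96. It had 3.33, 3.41 and 1.79 FPKM at 60 d and 18.4, 30.3 and 26.9 at 400 d, while 240 d ranged from 5.89 to 34.8. pig_newGene_22 (3090 bases, chromosome 1 from 128560856 to 128564494, plus strand) rose by 2.22 ± 0.47 (SE) on the log2 scale and followed ENSSSCG00000023413, 3482 bases away on the opposite strand, with r = 0.99. Adjusted p over ages was 0.0127 for pig_newGene_1061 and 0.0110 for pig_newGene_22 (edgeR), and both miss 0.01. Their calls from 60 d to 400 d were kept in 5 and 4 of 12 fits without 1 library.

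pig_newGene_3289 (993 bases, scaffold GL892492.1 from 1 to 1074, plus strand) fell by 4.14 ± 0.78 (SE) on the log2 scale from 60 d to 400 d, yet its 60 d libraries had 419, 49.3 and 562 FPKM, so that the second was below 2 libraries of 120 d, which had 110.5 and 67.8. pig_newGene_50 (547 bases, chromosome 1) fell by 3.92 ± 0.85 (SE) on that scale, from 74, 9 and 16 counts at 60 d to 2, 2 and 4 at 400 d. Its adjusted p over ages was 0.0113 (edgeR), which misses 0.01, and this call was kept in 2 of 12 fits without 1 library. From 60 d to 240 d, pig_newGene_807 (681 bases, chromosome 13) fell most among the genes called, by 2.75 ± 0.41 (SE), with 27.0 to 63.6 FPKM in the younger and 4.54 to 8.25 in the older group. Among those called from 120 d to 400 d, pig_newGene_2892 fell most, by 2.73 ± 0.44 (SE), and pig_newGene_3340 rose by 1.29 ± 0.23 (SE).

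Some newly assembled genes had many counts in one library and 0 in another. A count of 0 does not show that a transcript was absent, since ACTA1 was also listed at 0 counts in some of these muscle libraries. At least 50 counts in a library together with 0 counts in another were seen for 42 of the 745 that reached 50 counts anywhere (5.64%, 95% Wilson interval 4.20 to 7.53%), against 66 of 9964 Ensembl genes (0.662%, 0.521 to 0.842%). The share was higher in each range of depth. With a highest library of 50 to below 100 counts it was 9.09% against 2.80%, from there to below 200 counts 6.25% against 0.553%, to below 500 counts 3.03% against 0.209%, and with 500 or more 2.05% against 0.141%.

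Such patterns occurred within ages. None of the 42 had at least 50 counts in all libraries of one age and 0 in all of another. On and off in libraries of the same age were 20 (47.6%), against 25 of the 66 Ensembl genes with such patterns (37.9%). All 42 were tested over ages, and edgeR called none at an FDR of 0.01. An unadjusted p under 0.05 was seen for 19, where 37.9% of all features had one, and DESeq2 called 8, where it called 20.2% of all features. In 19 a single library reached 50 counts, and in 17 a single library was at 0. Per library, 5 to 12 of the 42 were on and 5 to 12 were off. Another listed feature was overlapped by 14 of the 42 (33.3%) and by 142 of the other 703 (20.2%), and among the 589 that overlapped none, 28 (4.75%) were on and off.

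pig_newGene_1639 (1770 bases, chromosome 2 from 158335771 to 158338727, plus strand) had the highest count, with 0, 391 and 0 counts at 60 d, 0, 226 and 19 at 120 d, 308, 294 and 902 at 240 d, and 1023, 1005 and 839 at 400 d. It lies between SLC6A7 and TCOF1 and overlaps pig_newGene_1690 and, on the opposite strand, ENSSSCG00000027896, at 109 to 234 FPKM. pig_newGene_24 (4672 bases, chromosome 1 from 137363670 to 137392164, plus strand) overlaps FBN1, the fibrillin of elastic fibres, on the same strand. It was at 0 counts in 3 libraries, the second and the third of 60 d and the second of 240 d, and at 51 to 301 in the other 9, while FBN1 had 5.34 to 15.1 FPKM in all 12.

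Some of the 42 overlapped another newly assembled gene on the opposite strand. pig_newGene_2127 (3252 bases, chromosome 4 from 129662526 to 129665946, minus strand) had 562 counts in the first 60 d library, 10 in the third of 240 d and 0 in the other 10. The feature over it on the plus strand, pig_newGene_2099, had 5752 to 15266 counts in every library. pig_newGene_1595 (4593 bases, chromosome 2 from 8584045 to 8588864, plus strand) had 230 counts in the third 400 d library, 99 in the first of 120 d and 0 to 12 elsewhere. Its partner on the minus strand, pig_newGene_1652 (from 8584107 to 8588785), had 2 counts in that same 400 d library and 185 to 4114 in the other 11. RefSeq lists EEF1G, a translation elongation factor, and AHNAK, a very large structural protein, between the flanking genes TUT1 and SCGB1A1.

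Others lay apart from any listed feature. pig_newGene_2920 (623 bases, chromosome 8 from 3465659 to 3469710, minus strand) had 285, 0 and 223 counts at 60 d, 0 in all 3 libraries of 120 d, 96, 64 and 2 at 240 d, and 0, 161 and 0 at 400 d. pig_newGene_2739 (323 bases, chromosome 7 from 24626913 to 24627415, minus strand) had 335 counts in the first 60 d library and 0 in the second and the third of 120 d.

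pig_newGene_1673 (1022 bases, chromosome 2 from 90083924 to 90085594, minus strand) was at 0 counts in the third 60 d library only and at 45 to 201 in the other 11, while pig_newGene_2507 (3329 bases, chromosome 6 from 63878651 to 63891067, minus strand) was at 0 in the first 120 d library only and reached 196 in the third of 240 d. For both genes, the other 2 libraries of that age had counts.

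The same libraries could be high for more than 1 of these genes. pig_newGene_2088 (2381 bases, chromosome 4 from 89807470 to 89858110, plus strand) had 378 and 620 counts in the first and the third 400 d libraries and at most 67 in the others, with 0 in the second of 120 d. pig_newGene_2119 on the same chromosome and pig_newGene_4230 on scaffold JH118588.1 were likewise highest in those 2 libraries, at 55 and 76 and at 51 and 73 counts, against at most 17 elsewhere for each.

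A count of 1 can hide a further case. pig_newGene_398 (3098 bases, chromosome 10 from 25781864 to 25785088, plus strand), which overlaps the kinase gene NEK7 on the same strand, had exactly 1 count in 5 libraries, the second of 60 d, all 3 of 240 d and the third of 400 d, and 91 to 421 in the other 7. Its 60 d and 400 d libraries fell on both sides, and the adjusted p over ages was 0.0704 (edgeR). NEK7 had 6.58 to 40.1 FPKM in all 12 libraries.

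**Figure D5:**
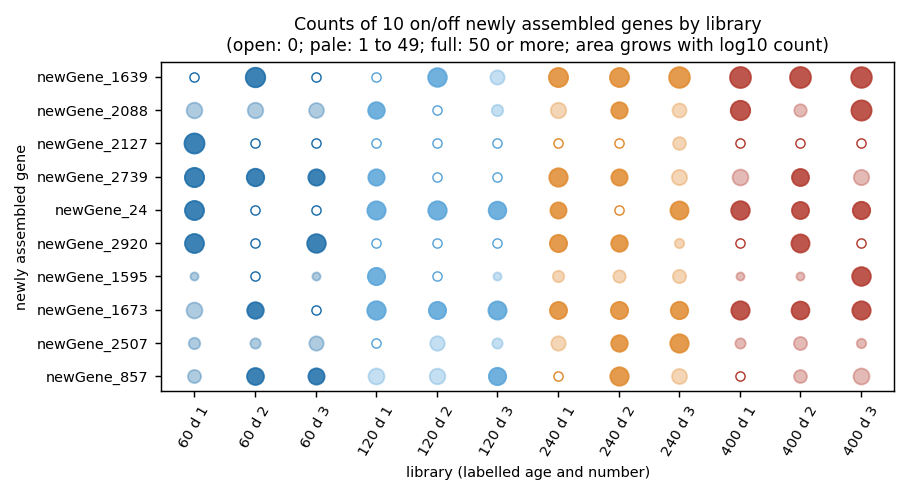
Counts of the 10 on/off newly assembled genes with the highest counts (rows) in the 12 libraries (columns, coloured by labelled age); open circles are 0 counts, pale ones 1 to 49 and full ones 50 or more, with the area growing with the log10 count. Open and full circles stand side by side within an age in every row except that of pig_newGene_2507.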

How the data were processed

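RNA of LD muscle was sequenced from 12 pigs on an Illumina HiSeq2500 (paired-end, 125 cycles). The study's methods name TopHat2 and Cufflinks with the Sscrofa10.2 build, while the submitters' processing notes name Bowtie 0.12.2, Cufflinks and the mouse build mm8, whereas the tables list pig chromosomes and scaffolds. How the newly assembled genes were built is not given in the sources used here. The authors deposited, for each age and library, a raw count per feature, an FPKM value and a normalized value, of which the last was not used. The deposited lengths and positions were taken as they stand. Because lengths and counts are those of the authors' models, a wrong or split model changes both its count and its FPKM.

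Samples were grouped by the age in their labels, and the 3 libraries of each file served as replicates (n = 3), numbered in column order. The tables held 0 columns of other samples. Counts were tested with edgeR 4.0.16 (quasi-likelihood test, TMM scaling, limma 3.58.1, R 4.3.3) in a fit of all 4 ages over features averaging 10 counts or more at some age, and p-values were adjusted over all of these by the Benjamini-Hochberg method. Features were called at an FDR of 0.01, with at least a 2-fold change for pairs of ages. DESeq2 1.42.0 was an alternative. In simulated counts of 13314 features with 200 changed 4-fold, the test over 4 ages recovered 100, 94.5 and 42.5% of the changed features at a dispersion of 0.05, 0.1 and 0.2, and the test of a pair of ages 100, 85.5 and 22.0%. The changed features were drawn from those averaging at least 50 counts, with 1 dispersion for all features of a run. Recovery of features with fewer counts was not simulated. The common dispersion fitted to the data was 0.0888. Tables and figures used Python 3.11.15, pandas 2.3.3, numpy 2.4.6 and matplotlib 3.10.9. Wilson intervals have a confidence level of 95%.

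The members and lists were chosen with earlier results of these data known. Genes named were the 8 with the highest mean FPKM, up to 12 with the smallest p over ages past the FDR, up to 3 largest increases and 3 largest decreases among the genes called for a pair of ages, up to 10 on/off genes with the highest count, the 3 longest, and the nearest Ensembl genes. The values of 1 of the on/off genes are not reported in the text. Pairs of ages that are not adjacent, the split into younger and older libraries, and a few further genes were added after the values were seen. Gene symbols came from tables given with the data, and gene order from RefSeq of Sscrofa11.1. Comparisons between ages share libraries.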

Additional observations from a re-analysis of the deposited data

How the results depend on the processing

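At an FDR of 0.05, 195 newly assembled genes changed over ages and DESeq2 called 197, against 26. DESeq2 called 20.2% of all features over ages, and 5.3, 11.5 and 7.11% from 60 d to 240 d, 60 d to 400 d and 120 d to 400 d. Between 60 d and 240 d (9 called), an FDR of 0.05 gave 84, a 4-fold limit 4, DESeq2 70, a separate fit of both ages 0, and 62 with the ages of the supplementary table. Between 60 d and 400 d (62 called), the same settings gave 173, 26, 131, 0 and 9, and from 120 d to 400 d (9 called) 81, 3, 59, 0 and 0. Between adjacent ages (0 called), 60 d against 120 d gave 3 with DESeq2. 120 d against 240 d gave 32 at an FDR of 0.05, 39 with DESeq2, 1 in a separate fit and 9 with the ages of the supplementary table, and 240 d against 400 d gave 1 with DESeq2. Without 1 library, counts ran from 7 to 27 over ages, 0 to 8 from 60 d to 240 d, 10 to 58 from 60 d to 400 d and 0 to 15 from 120 d to 400 d. Scaling by the size factors of DESeq2 gave 26 over ages, and no filter on counts gave 38. On/off genes numbered 116 with 20 counts as on, 20 with 100 counts as on and 66 with up to 2 counts as off, against 42. Ensembl genes were not counted under these on/off settings. The share of all features was likewise not counted for the 4-fold limit, no filter, other scaling, separate fits or fits without 1 library. An Ensembl gene lay within 1 kb of 372 and within 20 kb of 874, against 559 within 5 kb.

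The ages of the supplementary table reversed the log2 change of all 18 values named. For 60 d to 240 d these became -2.02 for pig_newGene_110, 2.79 for pig_newGene_3022, -2.30 for pig_newGene_844, -1.11 for pig_newGene_1422, 2.23 for pig_newGene_4301 and 1.17 for pig_newGene_807. For 60 d to 400 d they became -1.82 for pig_newGene_844, 1.16 for pig_newGene_558, 1.88 for pig_newGene_3289, 2.36 for pig_newGene_50, -2.36 for pig_newGene_1061 and -1.87 for pig_newGene_22. For 120 d to 400 d they became -0.99 for pig_newGene_110, 1.61 for pig_newGene_3022, -1.69 for pig_newGene_844, 1.35 for pig_newGene_2425, 1.83 for pig_newGene_2892 and -0.69 for pig_newGene_3340. DESeq2 called all 18 and a separate fit 0 of 18. The cause of these differences was not tested.

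Of the 12 genes with the smallest p over ages, the adjusted p stayed under 0.01 in 108 of 144 fits without 1 library. Of the 18 named log2 changes between pairs of ages, 88 of 216 such fits kept the call and 128 lost it. No paired analysis was possible because the labels give no replicate numbers that the ages share. With 3 libraries an age, and with conflicting ages, directions are the least certain of the values given. FPKM of short transcripts and counts of overlapping features limit comparisons of level between genes.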

Other observations

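pig_newGene_139 (325 bases, chromosome 1 from 293381749 to 293388566), which was picked after its values were seen, had 605 to 863 FPKM in 7 libraries and 256 to 347 in the other 5, with none in between. Both ranges occurred at each of the 4 ages, and the adjusted p over ages was 0.872 (edgeR). pig_newGene_1628 (11110 bases, chromosome 2 from 121358597 to 121371415), the longest after 2 in the FKBP7 to CCDC141 interval, was at 0 counts in 10 libraries and had 14 counts in the third library of 240 d and 40 in the second of 400 d.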
